A study of Mus musculus with 11 samples.

Results

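The 45 genes described here make the proteins that copy DNA and supply its building blocks. They were chosen by symbol, as the entries named Orc1, Orc2, Orc6, Cdc6, Cdt1, Gmnn, Mcm2 to Mcm7, Mcm10, Cdc45, Gins1 to Gins4, Pola1, Pola2, Prim1, Prim2, Pold1, Pold2, Pole, Pole2, Pcna, Rfc1 to Rfc5, Rpa1 to Rpa3, Fen1, Lig1, Rrm1, Rrm2, Tyms, Tk1, Chaf1a, Chaf1b, Ccne1 and Ccne2. All 45 were found among the 23071 identifiers of the deposited expression table, and all 45 passed the filter on low values in every comparison. RNA was sequenced from 11 samples of C57BL/6 mice. For leukemia, 5 libraries were made from lymph node suspensions, each of 1 leukemic mouse of genotype Pax5+/- x Ebf1+/-, lacking 1 functional copy of each of these B cell transcription factors. The 3 Ebf1 heterozygous libraries (Ebf1+/-) came from bone marrow progenitor B cells, column purified from pools of 3, 6 and 7 mice. The 3 wild-type libraries were made in the same way from pools of 3, 7 and 6 mice. Age is not given in the sources used here. Genotype, leukemic state, tissue, column purification and pooling differed together between leukemia and both progenitor groups and cannot be told apart. Leukemia and Ebf1 heterozygous cells share the loss of 1 Ebf1 copy.

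Before S phase, the origin recognition complex, Cdc6 and Cdt1 load the ring-shaped MCM helicase onto DNA. Cdc45 and the GINS complex then turn the loaded ring into a moving helicase, primase and the polymerases alpha, delta and epsilon copy both strands, and the clamp PCNA and its loader RFC hold the polymerases in place. Ribonucleotide reductase, thymidylate synthase and thymidine kinase provide deoxynucleotides. Large pre-B cells divide rapidly, and many genes of this group are classical targets of E2F transcription factors, which are active at the entry into S phase.

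Values are FPKM, reads scaled to the length of the transcript and the size of the library, so levels can be set beside each other between genes. Library totals ran from 8506680 to 15313920 reads, and the 45 genes had between 116 and 11193 reads in any library, so that none was near the limit of detection. Pax5 had a median of 128.45 FPKM in leukemia, 193.41 FPKM in Ebf1 heterozygous cells and 179.68 FPKM in wild type, and Ebf1 had medians of 65.56, 83.63 and 102.35 FPKM in the same order. Summed over 10 B progenitor markers, the libraries held 3269 to 4506 FPKM in leukemia, 1764 to 5093 FPKM in Ebf1 heterozygous cells and 2380 to 4059 FPKM in wild type. The progenitor libraries also held RNA of other blood cells, as 11 granulocyte markers summed to 3.98 to 8.92 FPKM in leukemia, 2598 to 10193 FPKM in Ebf1 heterozygous cells and 612 to 3281 FPKM in wild type. Wild-type replicate 2 and Ebf1 heterozygous replicate 2 correlated at 0.989 across genes, above the 0.984 of the closest pair within a group. Most counts and medians that rest on the Ebf1 heterozygous group are therefore also given without its replicate 2. The counts of genes whose groups did not overlap are not.

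The promoters of 36 of the 45 genes were matched by symbol in RefSeq tables (GRCm38.p6), as windows of 300 bases from 250 before to 50 after the start. They were searched on both strands for 3 motifs: the E2F site (TTTCCCGC, TTTCGCGC, TTTGCCGC or TTTGGCGC), the CCAAT box (CCAAT) and the CHR element of mitotic genes (TTTGAA). The next lines show 180 bases, from 150 before to 30 after the start, of the genes on which the results turn. Orc1 and Pole2 rose in leukemia and hold an E2F match, Tyms had the largest rise of the 45, Rrm2 was the gene that fell, and Mcm6 is the MCM subunit that was low in 1 leukemia. Capitals mark E2F and CCAAT matches. The Orc1 stretch is chr4:108579304-108579483 on the plus strand, Pole2 chr12:69228161-69228340 on the minus strand, Mcm6 chr1:128359676-128359855 on the minus strand, Tyms chr5:30073596-30073775 on the minus strand and Rrm2 chr12:24708104-24708283 on the plus strand.
Orc1: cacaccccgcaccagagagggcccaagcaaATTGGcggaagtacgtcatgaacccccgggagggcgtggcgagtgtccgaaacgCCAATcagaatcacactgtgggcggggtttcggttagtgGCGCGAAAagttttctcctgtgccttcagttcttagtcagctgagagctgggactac
Pole2: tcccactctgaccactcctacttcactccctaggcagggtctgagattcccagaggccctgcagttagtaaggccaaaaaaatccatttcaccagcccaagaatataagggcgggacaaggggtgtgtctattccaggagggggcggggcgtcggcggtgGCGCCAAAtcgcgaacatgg
Mcm6: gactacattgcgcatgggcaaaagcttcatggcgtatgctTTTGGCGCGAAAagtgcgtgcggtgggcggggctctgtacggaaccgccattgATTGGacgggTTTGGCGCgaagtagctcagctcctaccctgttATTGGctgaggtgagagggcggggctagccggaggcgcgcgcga
Tyms: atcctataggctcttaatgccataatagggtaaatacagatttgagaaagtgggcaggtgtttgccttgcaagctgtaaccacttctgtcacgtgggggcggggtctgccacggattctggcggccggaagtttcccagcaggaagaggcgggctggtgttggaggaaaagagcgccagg
Rrm2: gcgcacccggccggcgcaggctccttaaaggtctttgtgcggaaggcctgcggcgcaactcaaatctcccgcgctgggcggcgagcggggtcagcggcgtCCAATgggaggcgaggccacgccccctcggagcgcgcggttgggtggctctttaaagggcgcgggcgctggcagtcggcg
In the Mcm6 stretch the run TTTGGCGCGAAA is an E2F match on each strand, the 2 matches overlapping, and another E2F match lies nearer the start. The Tyms window held no match to any of the 3 motifs, and the Rrm2 window held a CCAAT box and no E2F match.

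E2F matches were found in 13 of the 36 promoters (36.1%), against 4.88% of the 8458 promoters of genes tested between leukemia and wild type. CCAAT boxes were in 23 of 36 (63.9%, against 43.4%) and CHR elements in 5 of 36 (13.9%, against 14.3%). Beside them, 20 promoters of a list of 23 mitosis genes held an E2F match in 1 (5%), a CCAAT box in 17 (85%) and a CHR element in 15 (75%). A match of letters is a description of the window and does not show that a factor binds there. Of the 10 genes called below between leukemia and wild type, 6 had a promoter in the tables, and E2F matches were in those of Orc1 and Pole2 only. Gins1, Gins4, Prim2 and Rfc2 were not matched.

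The comparison of leukemia with wild type asks what sets the leukemic cells apart from progenitors of wild-type mice. Part of the group was higher in leukemia, 1 gene was lower, and the others did not pass the test. Of the 45 genes, 9 were higher in leukemia by the limma test (20%, where 20.7% of all 10968 genes tested were called higher) and 1, Rrm2, was lower (2.22%, against 24.1% of all genes). The share called higher was thus close to that of all genes, and the share called lower was below it. Without wild-type replicate 1, 4 of the 45 were called higher, beside 1787 of 10931 genes. In that fit the share called higher was below that of all genes. The median log2 fold change of the 45 was 0.20, beside -0.04 over all genes tested, and 36 of 45 fold changes were positive (beside 47.5% of all genes). That median was 0.11 without wild-type replicate 1 (29 positive) and 0.31 without wild-type replicate 2 (41 positive). All libraries of leukemia lay above all of wild type for 7 of the 45 genes (15.6%, beside 21.2% of all genes), and below for Rrm2 alone (2.22%, beside 25.1%). The genes that rose were spread over the steps of replication: Orc1 at the origin, Gins1 and Gins4 in the helicase, Prim1 and Prim2 in primase, Pole2 in polymerase epsilon, Rfc2 in the clamp loader, and Tyms and Tk1 in thymidylate supply.

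**Figure D1:**
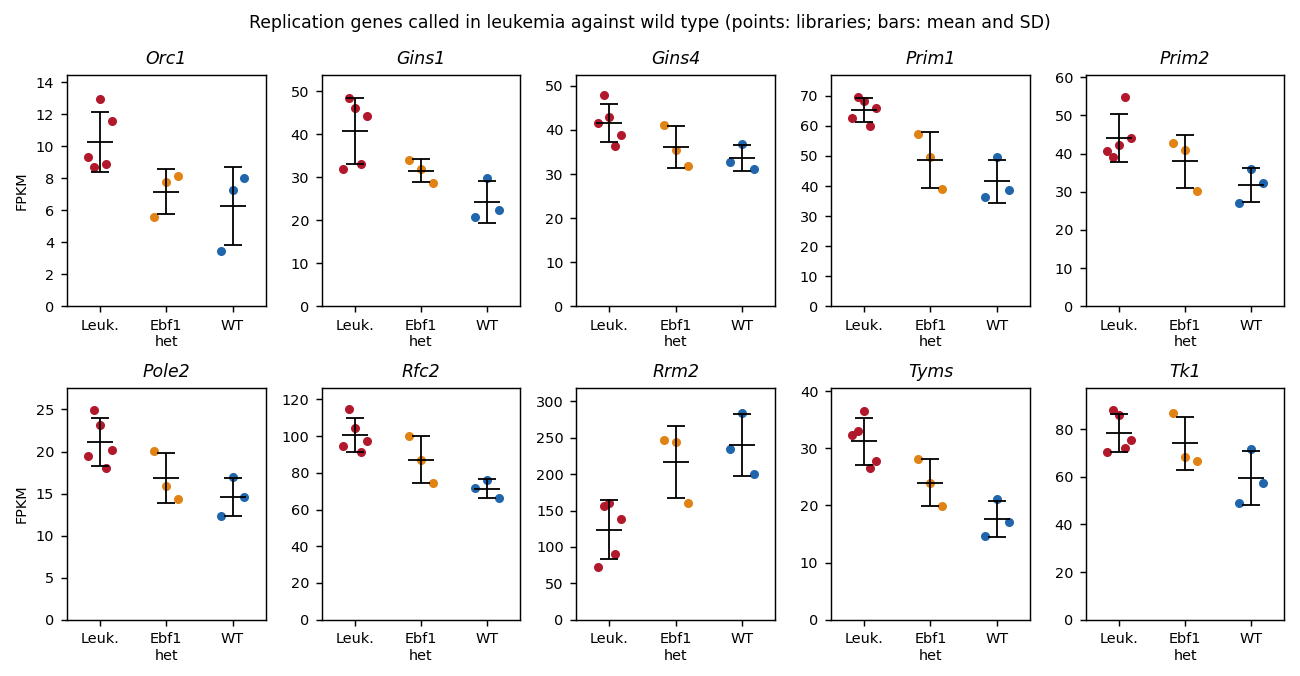
FPKM (y axis, from 0) of the 10 replication genes called between leukemia and wild type, with 1 point per library (5 leukemia in red, 3 Ebf1 heterozygous in orange, 3 wild type in blue) and bars for the mean and SD. Rrm2 is the gene whose leukemia points, 72.47 to 160.63 FPKM, lie below all wild-type points; the leukemia points of Orc1, Gins1, Prim1, Prim2, Pole2, Rfc2 and Tyms lie above all of theirs.

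Among the origin licensing genes, Orc1, the largest subunit of the origin recognition complex, was the lowest expressed of all 45. It had 9.33, 8.72, 12.95, 8.91 and 11.59 FPKM in leukemia replicates 1 to 5, against 3.47, 7.28 and 8.04 FPKM in wild type. Every leukemia lay above every wild-type library, and wild-type replicate 1 was by far the lowest. Orc1 averaged 10.3 ± 1.88 FPKM in leukemia (SD, n = 5) and 6.26 ± 2.45 FPKM in wild type (SD, n = 3), a log2 fold change of 0.69 (SE 0.24, limma adjusted p = 0.0404). Without wild-type replicate 1 the call was lost (log2 fold change 0.37, limma adjusted p = 0.122). The other 5 licensing genes had log2 fold changes of 0.06 for Cdt1 to 0.29 for Orc6, and none was called. Gmnn, which encodes geminin, the inhibitor of Cdt1, averaged 92.1 ± 14.5 FPKM in leukemia and 80.8 ± 11.1 FPKM in wild type.

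The 6 subunits of the MCM2 to 7 helicase were among the more abundant genes, and none was called. Summed, they reached 911 to 1145 FPKM in leukemia and 692 to 1063 FPKM in wild type, which overlap. Their log2 fold changes were all positive, from 0.12 for Mcm5 to 0.32 for Mcm2 and Mcm6. Mcm2, the member of this role with the smallest p, had 122.79, 142.91, 158.49, 135.59 and 168.7 FPKM in leukemia, against 89.93, 143.01 and 120.34 FPKM in wild type. The 2 groups overlapped through wild-type replicate 2, and the log2 fold change of 0.32 had a 95% interval of -0.04 to 0.68 (limma adjusted p = 0.131). The least abundant of the 6 stood at 0.33 to 0.43 of the most abundant in leukemia and at 0.37 to 0.39 in wild type.

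Of the factors that activate the helicase, 2 of the 4 GINS subunits rose. Gins1 had 31.95, 48.41, 46.18, 33.15 and 44.26 FPKM in leukemia, against 20.69, 29.76 and 22.44 FPKM in wild type. All leukemias were above all wild-type libraries, although replicates 1 and 4 were close to wild-type replicate 2. The log2 fold change was 0.72 (SE 0.18, limma adjusted p = 0.00972), the second highest of the 45. Gins4 had 41.54, 47.79, 42.96, 36.33 and 38.94 FPKM in leukemia, against 32.78, 36.78 and 31.06 FPKM in wild type, where leukemia replicate 4 fell within the wild-type range. Its log2 fold change of 0.30 (SE 0.11) was close to the threshold (limma adjusted p = 0.0484, and up to 0.152 without wild-type replicate 3). Gins2 and Gins3 were not called, at log2 fold changes of 0.28 and 0.04. Cdc45, their partner in the active helicase, averaged 33.2 ± 4.39 FPKM in leukemia and 39.2 ± 6.12 FPKM in wild type, a log2 fold change of -0.23 that missed the threshold (limma adjusted p = 0.197).

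Both primase subunits rose, and the polymerase alpha subunits they bind did not pass the test. Prim1, the catalytic subunit that makes RNA primers, had 62.57, 69.61, 68.36, 60.11 and 65.97 FPKM in leukemia, against 36.4, 49.51 and 38.66 FPKM in wild type. The groups were well apart, and the leukemias varied little, with a coefficient of variation of 6.06%, the lowest of the 45 genes in leukemia. The log2 fold change was 0.65 (SE 0.11, limma adjusted p = 0.00183). Prim2, the large subunit, had 40.57, 39.13, 42.18, 54.81 and 44.08 FPKM in leukemia, against 27.19, 35.89 and 32.37 FPKM in wild type. The groups did not overlap, and leukemia replicate 4 was the highest (log2 fold change 0.46, SE 0.13, limma adjusted p = 0.0203). Pola1, the catalytic subunit of polymerase alpha, averaged 31.5 ± 3.37 FPKM in leukemia and 30.6 ± 6.71 FPKM in wild type. Pola2, its accessory subunit, had a log2 fold change of 0.26 (95% interval 0.04 to 0.49, limma adjusted p = 0.0575).

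Of the replicative polymerases that extend the primers, Pole2, the second subunit of polymerase epsilon, rose. It had 19.42, 24.9, 23.16, 18.02 and 20.22 FPKM in leukemia, against 12.34, 16.91 and 14.57 FPKM in wild type. All leukemias lay above the wild-type libraries, by about 1 FPKM at the nearest pair (log2 fold change 0.51, SE 0.14, limma adjusted p = 0.015). The catalytic subunit Pole averaged 26.0 ± 2.47 FPKM in leukemia and 22.9 ± 5.36 FPKM in wild type and was not called. Pold1, the catalytic subunit of polymerase delta, had 118.54 FPKM in leukemia replicate 4 and 65.37 to 82.23 FPKM in the other leukemias, against 86.48 to 105.41 FPKM in wild type. With all leukemias it was not called (log2 fold change -0.24, limma adjusted p = 0.32), and without replicate 4 it was called lower (-0.37, limma adjusted p = 0.0312).

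Pcna, the sliding clamp, was the most abundant of the 45 genes. It ranged from 403.04 to 652.81 FPKM in leukemia and from 405.47 to 590.54 FPKM in wild type, a log2 fold change of 0.16 (95% interval -0.28 to 0.60). Of the 5 subunits of the clamp loader, Rfc2 rose, with 94.71, 114.55, 104.29, 91.32 and 97.47 FPKM in leukemia, against 71.8, 76.21 and 66.13 FPKM in wild type. The groups were clearly apart, and the log2 fold change was 0.49 (SE 0.10, limma adjusted p = 0.00406). Rfc1, Rfc3, Rfc4 and Rfc5 had log2 fold changes of 0.18 to 0.25, none called. Rfc2 overlaps Lat2, which lies on the opposite strand and averaged 20.3 FPKM, and whether the counting used strand is not given in the sources used here, so reads of the overlap cannot be told apart. The same holds for Orc2, Orc6, Mcm7, Gins2, Rfc4, Rfc5, Fen1, Chaf1a and Ccne2, each of which overlaps a gene on the other strand.

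The single-strand binding protein RPA and the enzymes that join Okazaki fragments did not pass the test. Rpa2 had 66.69, 79.63, 82.33, 77.7 and 75.71 FPKM in leukemia, against 54.08, 74.25 and 58.11 FPKM in wild type, with wild-type replicate 2 inside the leukemia range (log2 fold change 0.30, limma adjusted p = 0.0655). Rpa1 and Rpa3 had log2 fold changes of 0.26 and 0.11. Fen1, the flap endonuclease, had 72.11, 86.5, 84.85, 78.15 and 89.87 FPKM in leukemia, against 71.77, 99.28 and 92.81 FPKM in wild type. Its log2 fold change was -0.09 and its 95% interval of -0.37 to 0.19 allows a modest change either way. Lig1, the DNA ligase of replication, averaged 89.1 ± 15.2 FPKM in leukemia and 89.8 ± 19.4 FPKM in wild type.

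The largest changes in both directions lay in deoxynucleotide supply. Tyms, thymidylate synthase, had 32.29, 32.96, 36.49, 26.51 and 27.77 FPKM in leukemia, against 14.7, 21.06 and 17.09 FPKM in wild type. The groups did not overlap, and the log2 fold change of 0.80 (SE 0.14, limma adjusted p = 0.00216) was the highest of the 45. Tk1, the thymidine kinase of the salvage pathway, had 70.24, 88.1, 85.85, 72.0 and 75.61 FPKM in leukemia, against 49.12, 71.82 and 57.35 FPKM in wild type. Leukemia replicate 1 was below wild-type replicate 2, and the log2 fold change of 0.40 (SE 0.14, limma adjusted p = 0.0366) was no longer called when wild-type replicate 1 was left out (limma adjusted p = 0.136). Tk1 overlaps Afmid on the opposite strand, which averaged 2.81 FPKM.

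Rrm2, the small subunit of ribonucleotide reductase that is made in S phase, fell in leukemia. It had 72.47, 156.91, 160.63, 90.47 and 138.82 FPKM in leukemia, against 234.59, 284.42 and 200.59 FPKM in wild type. Every leukemia was below every wild-type library, and leukemia replicates 1 and 4 were the lowest. The mean was 124 ± 40.1 FPKM in leukemia (SD, n = 5) and 240 ± 42.2 FPKM in wild type (SD, n = 3), or 0.516 of the wild-type mean, with a log2 fold change of -1.0 (SE 0.27, limma adjusted p = 0.0154). Without wild-type replicate 2 the fold change was -0.87 and the call was lost (limma adjusted p = 0.0662). Rrm1, the large subunit, was not called, at 131 ± 18.9 FPKM in leukemia and 144 ± 30.8 FPKM in wild type.

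Within each leukemia library, Rrm2 was also less abundant relative to its partner than in any wild-type library. The ratio of Rrm2 to Rrm1 was 0.73, 1.06, 1.26, 0.66 and 0.99 in leukemia, while Ebf1 heterozygous cells stood at 2.24, 1.5 and 1.16 and wild type at 2.08, 1.63 and 1.37. Ebf1 heterozygous replicate 3 lay within the leukemia range. Relative to Tyms, Rrm2 stood at 2.24 to 5.0 in leukemia, 8.02 to 10.25 in Ebf1 heterozygous cells and 11.74 to 15.96 in wild type. These ratios were chosen after the values had been seen, so they are given as a description. Exact permutation tests over libraries, adjusted over 12 ratio tests, gave adjusted p = 0.0857 for both ratios in leukemia against wild type. With 5 and 3 libraries the smallest unadjusted p of this test is 0.0357, so no conclusion is drawn from it.

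The last 2 roles, chromatin assembly and cyclin E, had no called gene. Chaf1b, a subunit of the CAF-1 complex that places histones behind the fork, had 27.35, 48.48, 30.8, 31.6 and 38.2 FPKM in leukemia, against 19.79, 35.66 and 30.19 FPKM in wild type (log2 fold change 0.31, limma adjusted p = 0.285). Its partner Chaf1a had a log2 fold change of 0.13. Ccne1, a cyclin that drives entry into S phase with Cdk2, had 13.04, 30.6, 20.32, 17.07 and 18.66 FPKM in leukemia, against 17.97, 32.25 and 34.99 FPKM in wild type. The groups overlapped through leukemia replicate 2 and wild-type replicate 1, and the log2 fold change was -0.49 (95% interval -1.12 to 0.14, limma adjusted p = 0.183). Ccne2 averaged 21.7 ± 6.77 FPKM in leukemia and 21.2 ± 2.06 FPKM in wild type.

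**Figure D2:**
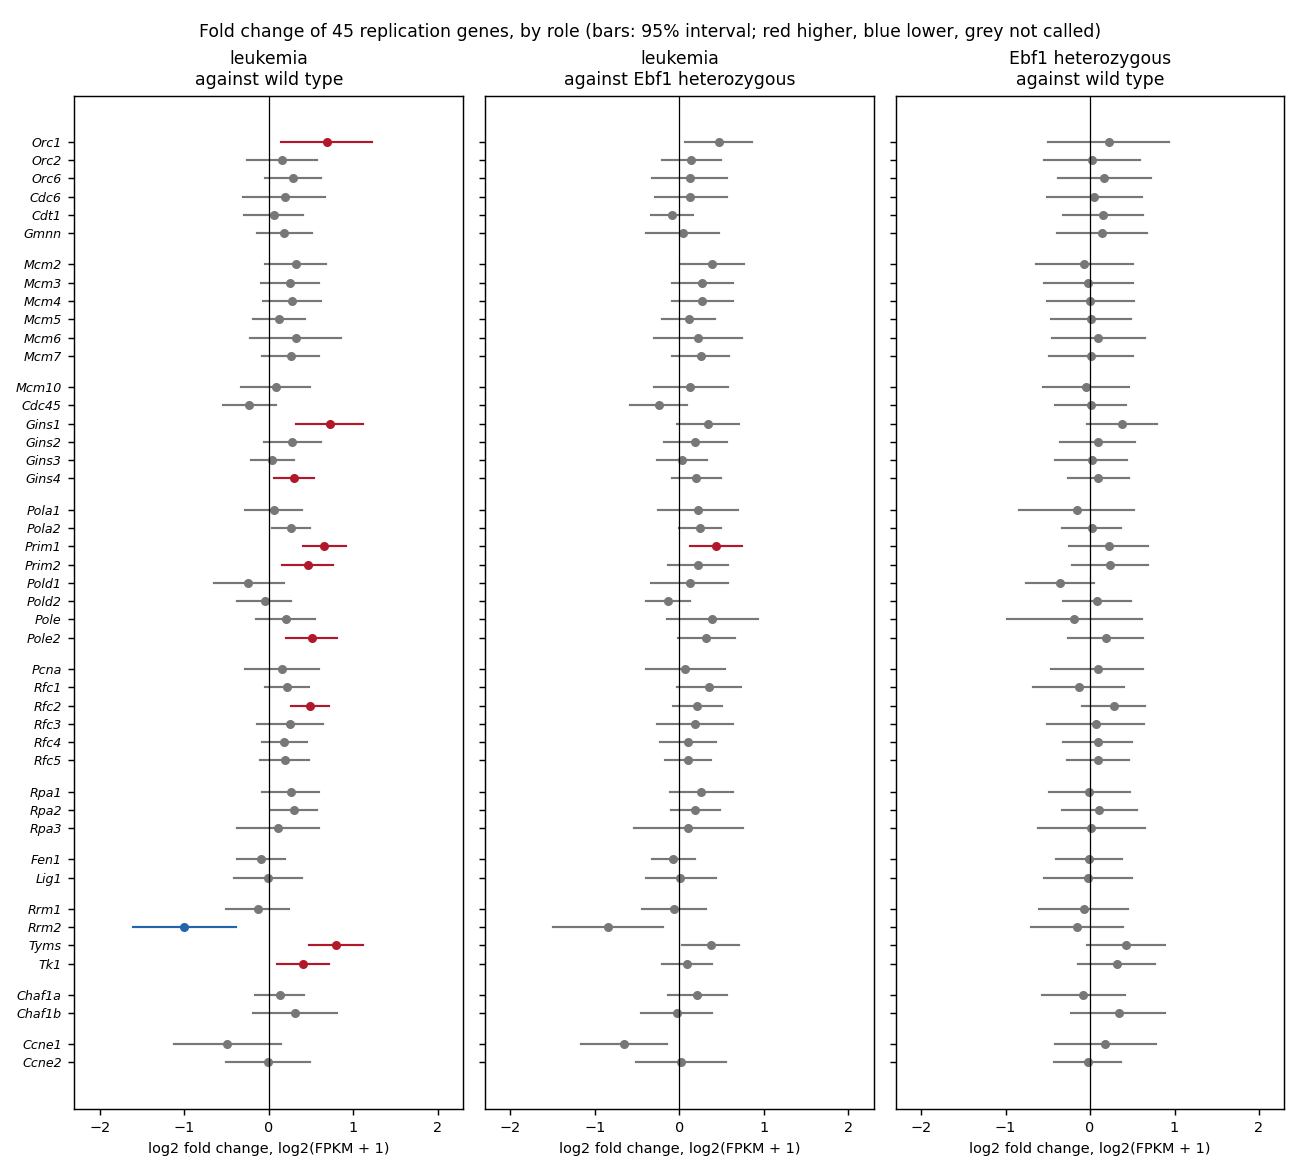
Log2 fold changes on the log2(FPKM + 1) scale (x axis) of the 45 genes, grouped by role from origin licensing at the top to cyclin E at the bottom, with 95% intervals, for leukemia against wild type (left), leukemia against Ebf1 heterozygous (middle) and Ebf1 heterozygous against wild type (right). Red marks genes called higher and blue genes called lower by limma: 9 and 1 on the left, 1 and 0 in the middle, 0 and 0 on the right.

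Within wild type, most of the 45 genes had the same library highest and the same library lowest, and the other groups were more mixed. Wild-type replicate 2 had the highest value of the 3 wild-type libraries for 41 of the 45 genes and replicate 1 the lowest for 35. In leukemia, replicate 1, which was also the shallowest library, was lowest of the 5 for 24 genes, and replicate 2 was highest for 19 and lowest for 6. In Ebf1 heterozygous cells, replicate 2 was highest of the 3 for 23 genes and lowest for 1, replicate 1 was highest for 19 and lowest for 22, and replicate 3 was lowest for 22. How often each library was highest or lowest over all genes was not counted, so this order cannot be called particular to the 45. Within groups, the coefficient of variation of a gene had a median over the 45 of 13.2% in leukemia, 17.6% in Ebf1 heterozygous cells and 18% in wild type. Leaving out wild-type replicate 1 reduced the genes called higher in leukemia to 4 (beside 1787 of all 10931 genes tested), which were Gins1, Prim1, Rfc2 and Tyms. These 4 were called in all 8 fits that each left out 1 library. Pole2, Prim2 and Rrm2 were called in 7 of the 8, Orc1 and Tk1 in 3 and Gins4 in 1.

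The comparison of leukemia with Ebf1 heterozygous progenitors sets 2 groups side by side that both lack an Ebf1 copy. Of the 45 genes, 1 was called higher (2.22%, where 9.31% of all 11161 genes tested were called higher) and 0 lower (against 12.3%). At an unadjusted p under 0.05 there were 6 of the 45, and 4011 of all genes. Without Ebf1 heterozygous replicate 2 there were 12 of the 45, and 3721 of 11148 genes. The median log2 fold change of the 45 was 0.14 (37 positive), beside -0.02 over all genes (47.6% positive). It was 0.10 without Ebf1 heterozygous replicate 3 (28 positive) and 0.22 without replicate 2 (38 positive). Voom on the recovered reads called 0 of the 45, and 2167 of all genes. At an unadjusted p under 0.05 voom gave 5 of the 45, and 3973 of all genes. The gene called was Prim1, at 62.57, 69.61, 68.36, 60.11 and 65.97 FPKM in leukemia, against 57.33, 49.79 and 38.97 FPKM in Ebf1 heterozygous cells. The groups did not overlap, the nearest pair being leukemia replicate 4 and Ebf1 heterozygous replicate 1. The log2 fold change of 0.43 (SE 0.14) sat at the threshold (limma adjusted p = 0.0499, with a range of 0.0159 to 0.193 over the alternative settings). Prim1 was called in 6 of these 16 settings, and in 1 of the 8 that each left out 1 library.

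Other genes that had been called against wild type did not pass here. Orc1 had 8.72 to 12.95 FPKM in leukemia, above the 5.59, 7.79 and 8.15 FPKM of the Ebf1 heterozygous libraries (log2 fold change 0.47, limma adjusted p = 0.0911). Orc1 and Prim1 were the 2 of 45 genes whose leukemia libraries all lay above the others (4.44%, beside 12.9% of all genes), and 0 of 45 lay wholly below (beside 16.2%). Rrm2 had 72.47 to 160.63 FPKM in leukemia, against 247.15, 244.53 and 159.79 FPKM in Ebf1 heterozygous cells. Leukemia replicate 3 just reached the lowest Ebf1 heterozygous library, and the log2 fold change of -0.85 (95% interval -1.50 to -0.19) missed the threshold (limma adjusted p = 0.0668, and 0.0419 with all 3 groups in 1 fit). Ccne1 averaged 19.9 ± 6.54 FPKM in leukemia and 31.0 ± 1.46 FPKM in Ebf1 heterozygous cells (log2 fold change -0.66, limma adjusted p = 0.0655). Without leukemia replicate 2, its highest leukemia library, it was called lower (-0.83, limma adjusted p = 0.0135). Without Ebf1 heterozygous replicate 2, the library close to wild-type replicate 2, Prim1 was not called and Rfc1, the large subunit of the clamp loader, was called higher (limma adjusted p = 0.0393). Because both comparisons share the leukemia libraries, they are not independent of each other.

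Progenitors with 1 Ebf1 copy showed no called change in these genes against wild type. Of the 45 genes, 0 were called (0%), as were 0% of all 11167 genes tested with limma. At an unadjusted p under 0.05 there were 0 of the 45, and 863 of all genes (1 and 1374 without Ebf1 heterozygous replicate 2). Voom on the recovered reads likewise called 0. With the replicate number as a block, which the pairing of these libraries calls for, limma again called 0, with 2 of the 45 and 1800 of all genes at an unadjusted p under 0.05. The median log2 fold change of the 45 was 0.05, with a range of -0.35 for Pold1 to 0.43 for Tyms, beside 0.03 over all genes (54.0% positive). The sign of that median turned with single libraries: leaving out Ebf1 heterozygous replicate 2 gave -0.02 (22 of 45 positive, in place of 31). Leaving out wild-type replicate 1 gave -0.07 (16 positive), and leaving out wild-type replicate 2 gave 0.16 (40 positive). Each of these fits leaves a library without its pair, so differences shared by a pair enter the median. No conclusion is drawn from the turn of sign. No gene of the 45 had groups that did not overlap (0% in each direction, beside 7.53% above and 8.1% below over all genes), judged without the pairing. Within pairs, 7 of the 45 were higher in the Ebf1 heterozygous library of all 3 pairs (15.6%, beside 24.6% of all genes), which were Orc1, Mcm6, Gins1, Prim1, Rfc2, Tyms and Chaf1b. Another 7 were lower there in all 3 pairs (15.6%, beside 20.4%), which were Mcm2, Mcm3, Mcm10, Pola1, Pold1, Rrm1 and Chaf1a. The intervals were wide: Tyms averaged 24.0 ± 4.15 FPKM in Ebf1 heterozygous cells and 17.6 ± 3.21 FPKM in wild type, and Orc1 averaged 7.18 ± 1.38 FPKM and 6.26 ± 2.45 FPKM in the same order. Leaving out replicate 2 of both groups, which keeps the other pairs whole, also gave 0 calls, with a median of 0.13 (32 positive). This alternative was chosen after the data were seen. For 25 of the 45 genes the group means were ordered leukemia, Ebf1 heterozygous and wild type from high to low (also 25 without the progenitor libraries numbered 2). How many of all genes had this order was not counted, so it cannot be called particular to the 45. The Ebf1 heterozygous and wild-type libraries overlapped for all 45, and the leukemia and Ebf1 heterozygous libraries for all but Orc1 and Prim1.

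Genes around the 45 were described from 5 further lists, to set replication beside its neighbours. Of 35 other replication genes, 7 rose (20%, beside 20.7% of all genes) and 3 fell (8.57%, beside 24.1%) in leukemia against wild type, with a median log2 fold change of 0.13. Without wild-type replicate 1, 4 rose and 4 fell, beside 1787 and 2086 of 10931 genes. Dna2, a nuclease and helicase of Okazaki fragment processing, rose to 21.1 ± 4.82 FPKM in leukemia, against 12.1 ± 3.14 FPKM in wild type. Dscc1 of the cohesion-linked clamp loader (log2 fold change 0.64) and Cdc7, the kinase that fires origins (0.52), also rose. Those that fell were the histone chaperones Asf1b (-0.92) and Asf1a (-0.68) and Top2a, the topoisomerase that untangles chromosomes (-0.69). Top2a stood at 215 ± 24.6 FPKM in leukemia and 348 ± 43.4 FPKM in wild type.

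Nucleotide synthesis genes upstream of the 45 had a higher median fold change than the 45, a difference that was not tested. Of 22 genes of de novo purine, pyrimidine and linked one-carbon synthesis, 15 rose (68.2%, beside 20.7% of all genes) and 1 fell (4.55%, beside 24.1%) against wild type, with a median log2 fold change of 0.69. Against Ebf1 heterozygous cells 12 rose (54.5%, beside 9.31%) and 0 fell, with a median of 0.54. Leaving out Ebf1 heterozygous replicate 2 left 8 that rose (median 0.64), and over all 8 single libraries left out the count was 7 to 9 (medians 0.39 to 0.64). Of all genes, 732 of 11148 were called higher without that replicate, and 690 to 1224 over the 8 fits. Shmt1, a serine hydroxymethyltransferase whose folate product Tyms uses, stood at 61.8 ± 9.59 FPKM in leukemia, 19.8 ± 3.57 FPKM in Ebf1 heterozygous cells and 13.1 ± 3.73 FPKM in wild type. Its log2 fold change in leukemia against wild type was 2.17 (limma adjusted p = 6.12e-05). Shmt2, its mitochondrial counterpart (1.29), and Atic, which closes the purine ring (1.24), rose too, and Ctps2, a CTP synthetase, fell (-0.46), a call lost in 5 of the 8 fits with 1 library left out.

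Of 12 other deoxynucleotide genes tested, 4 rose (33.3%, beside 20.7% of all genes) and 3 fell (25%, beside 24.1%) against wild type. Rrm2b, the p53-inducible alternative to Rrm2, was at 6.02 ± 0.615 FPKM in leukemia, 21.4 ± 4.4 FPKM in Ebf1 heterozygous cells and 45.2 ± 11.7 FPKM in wild type, a log2 fold change of -2.69 against wild type (limma adjusted p = 8.28e-06). Both small subunits of ribonucleotide reductase were therefore lower in leukemia, while the large subunit Rrm1 was not called. Samhd1, which breaks down deoxynucleotides, fell as well (-1.84), as did the mitochondrial kinase Tk2 (-0.97). Nme2, a nucleoside diphosphate kinase (1.72), Dctd, a dCMP deaminase that makes the substrate of Tyms (1.40), and Dctpp1, a dCTP pyrophosphatase (1.36), rose.

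Of 23 regulators of S phase entry, 1 rose (4.35%, beside 20.7% of all genes) and 11 fell (47.8%, beside 24.1%) against wild type, with a median log2 fold change of -0.37. E2f2, an activating E2F, was at 21.8 ± 9.25 FPKM in leukemia, 102 ± 29.9 FPKM in Ebf1 heterozygous cells and 159 ± 34.4 FPKM in wild type (log2 fold change -2.90 against wild type, limma adjusted p = 0.000249). The repressors that fell included Rb1 (-2.05) and E2f8 (-1.47). Tfdp1, a partner with which E2F proteins bind DNA, rose (0.70), and Tfdp2, another such partner, fell to 6.89 ± 0.908 FPKM in leukemia, against 19.6 ± 0.772 FPKM in wild type (-1.39, limma adjusted p = 5.23e-05). E2f1 and E2f3 were not called, at -0.27 and 0.35.

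Most mitosis genes fell in leukemia, whereas Rrm2 was the 1 of the 45 replication genes that did. Of 23 mitosis genes, 21 fell (91.3%, beside 24.1% of all genes) and 0 rose in leukemia against wild type, with a median log2 fold change of -0.69. Against Ebf1 heterozygous cells 11 fell (47.8%, beside 12.3%), with a median of -0.44. Without Ebf1 heterozygous replicate 2, 6 fell (median -0.34), as was also the count without leukemia replicate 1, 3 or 4. Of all genes, 1120 of 11148 were called lower without Ebf1 heterozygous replicate 2. Without leukemia replicates 1, 3 and 4 in turn, 1084, 1049 and 1161 of all genes were. Ube2c, which marks proteins for destruction in mitosis, stood at 126 ± 13.6 FPKM in leukemia and 272 ± 35.7 FPKM in wild type (log2 fold change -1.10), and Prc1 and Cenpf of the spindle and kinetochore changed by -0.96 and -0.94. Summed, the mitosis genes reached 1078 to 1406 FPKM in leukemia, 1644 to 2139 FPKM in Ebf1 heterozygous cells and 1973 to 2331 FPKM in wild type. The 45 replication genes summed to 3058 to 3979 FPKM in leukemia, 3017 to 3766 FPKM in Ebf1 heterozygous cells and 2843 to 3904 FPKM in wild type. The sum of the 45 over the sum of the mitosis genes was 2.75 to 3.07 in the 5 leukemias, 1.73 to 1.84 in Ebf1 heterozygous cells and 1.41 to 1.67 in wild type, with no overlap between the 3 groups. Replicate 2 lay inside the Ebf1 heterozygous range, at 1.76. The lists were chosen with earlier results of these data known, so no test was made of this ratio. In bulk RNA, fewer cells in a phase of the cell cycle and less RNA per such cell cannot be told apart.

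**Figure D3:**
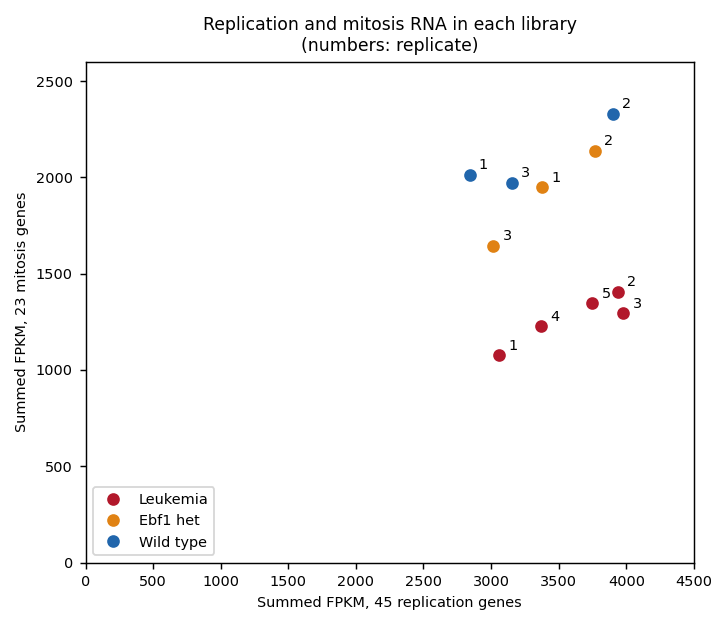
Summed FPKM of the 45 replication genes (x axis) and of 23 mitosis genes (y axis) in each of the 11 libraries, numbered by replicate. The 5 leukemias (red) span 3058 to 3979 FPKM on the x axis, a range that overlaps those of the Ebf1 heterozygous (orange) and wild-type (blue) libraries, and lie below all of them on the y axis.

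**Figure D4:**
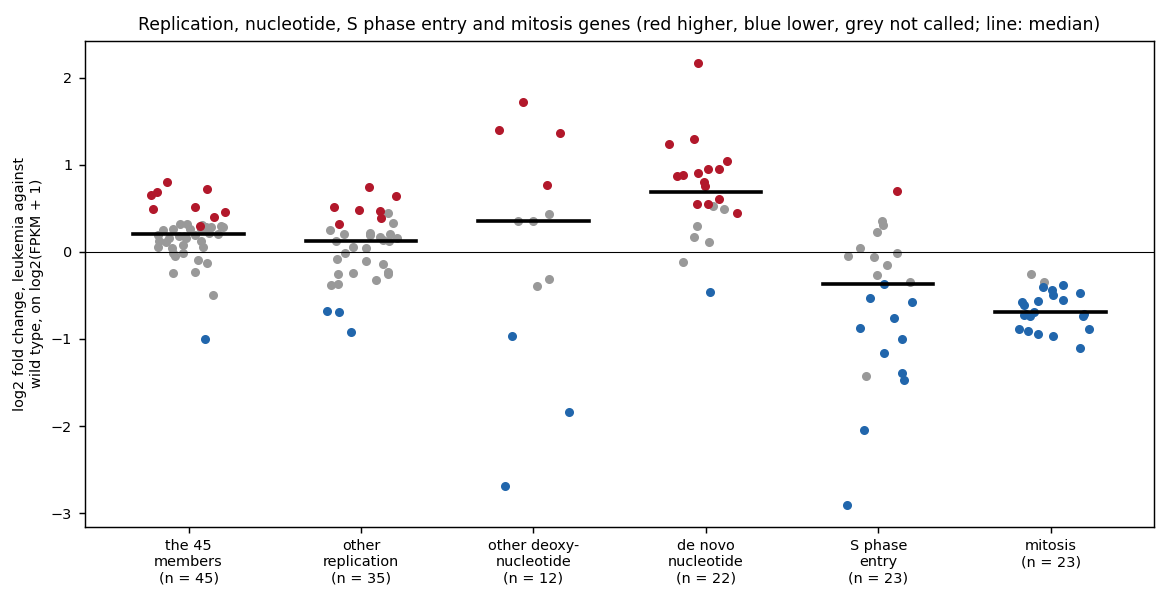
Log2 fold change in leukemia against wild type (y axis, log2(FPKM + 1) scale) of each tested gene of the 45 and of 5 other lists, with 1 point per gene, red called higher, blue called lower and grey not called, and a line at the median. The medians run from 0.69 for de novo nucleotide genes through 0.20 for the 45 to -0.69 for mitosis genes.

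Markers of other blood cells moved with these comparisons, as all 11 granulocyte markers fell in leukemia against wild type (median log2 fold change -6.13), 9 of 10 tested erythroid markers and 8 of 8 megakaryocyte and platelet markers. Erythroid markers summed to 57.4 to 148 FPKM in leukemia, 533 to 1359 FPKM in Ebf1 heterozygous cells and 252 to 1330 FPKM in wild type, and platelet markers to 0.382 to 1.31, 140 to 4003 and 74.7 to 446 FPKM in the same order. In all leukemias the erythroid markers Car1 and Rhag and 2 of the 8 platelet markers, Gp6 among them, were listed at 0. Most of the erythroid sum was Car2. The globins Hba-a1 and Hbb-bt were listed at 0 in all 11 libraries. Of 6 tested monocyte and dendritic markers 3 fell, and of 5 tested T and NK markers 0 were called. Among 10 B progenitor markers, Vpreb1 and Igll1 of the surrogate light chain rose and Cd79b and Rag2 fell. The part of other blood cells in the levels of the 45 genes was not tested.

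One gene stood apart in a single leukemia. Mcm6 had 212.86, 238.69, 222.71 and 239.41 FPKM in leukemia replicates 1, 2, 3 and 5 and 123.2 FPKM in replicate 4, against 143.48, 204.72 and 176.45 FPKM in Ebf1 heterozygous cells and 121.81, 199.0 and 173.3 FPKM in wild type. Replicate 4 was thus near the lowest wild-type library and the other leukemias were above all progenitor libraries. The other 5 MCM subunits of replicate 4 lay within or above the range of the other leukemias. With all leukemias Mcm6 was not called against wild type (log2 fold change 0.32, limma adjusted p = 0.305), and without replicate 4 it was called higher (0.50, limma adjusted p = 0.0387).

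The genes beside Mcm6 on chromosome 1 were low in the same leukemia. Of 24 genes within 5 Mb that averaged at least 5 FPKM, Mcm6 included, replicate 4 had the lowest value of the 5 leukemias in 22. Its level over the median of the other leukemias had a median of 0.54 across these genes (range 0.30 to 0.96). Dars, the neighbouring gene, had 39.26 FPKM in replicate 4 and 71.24 to 95.66 FPKM in the others. Over wider stretches of the chromosome, the median log2 difference of replicate 4 from the other leukemias was -0.88 from 80 to 100 Mb (47 of 49 genes lower), -0.81 from 100 to 120 Mb (10 genes) and -0.23 from 120 to 140 Mb (47 of 59 genes lower). Elsewhere in the genome no 20 Mb stretch with at least 20 genes had a median beyond 0.28 in either direction in any of the 5 leukemias. Over whole chromosomes, leukemia replicate 3 was raised on chromosome 15 (median 0.23, 323 genes) and chromosome 17 (0.19, 426 genes). All other chromosome medians of the 5 leukemias lay between -0.11 and 0.08. The cause of these shifts was not tested. Mcm3, Orc2 and Prim2 are also on chromosome 1, outside this stretch, and their log2 differences in replicate 4 from the other leukemias were 0.07, -0.26 and 0.40.

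**Figure D5:**
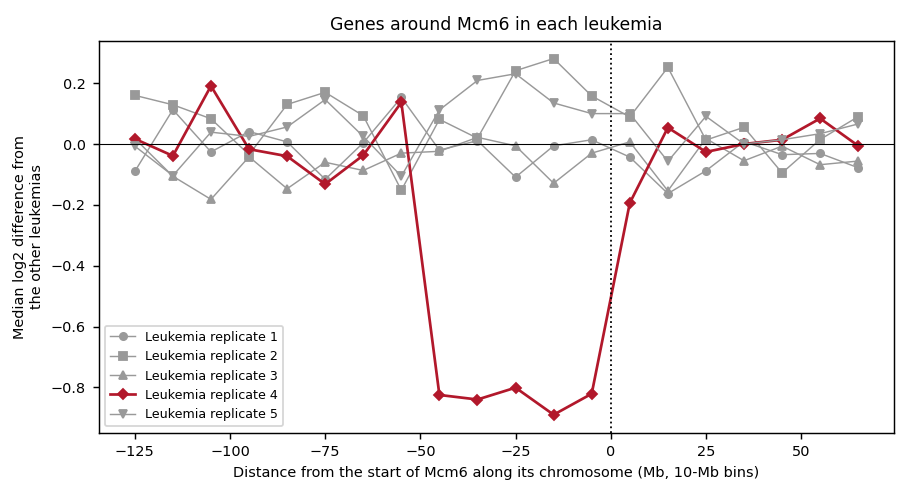
Median log2 difference of each leukemia from the other leukemias (y axis) for genes in 10 Mb steps along chromosome 1, by distance from the start of Mcm6 (x axis, dotted line at 0). Replicate 4 (red) lies between -0.80 and -0.89 from 50 Mb before Mcm6 up to it, and the other 4 leukemias (grey) stay between -0.18 and 0.28, although the steps from 30 to 10 Mb before Mcm6 rest on 4 and 2 genes.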

How the data were processed

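RNA was measured by sequencing in 5 leukemia, 3 Ebf1 heterozygous and 3 wild-type mouse libraries, grouped by genotype and cell type as the labels give them. The authors deposited 1 table of FPKM values for 23071 identifiers, of which 27 were date serial numbers and were not named. The submitters' processing notes list BWA 0.7.12 for leukemia and wild type but TopHat2 with Cufflinks for Ebf1 heterozygous libraries, and build mm10 (GRCm38), and this difference cannot be told apart from that group. What counted the reads, and on which annotation, is not given in the sources used here. Whole-number gene lengths and library totals were found that turn the FPKM of all 17380 genes above 0 into whole reads, to within 0.001 read. The totals were 8506680 to 15313920 reads, so 1 read on 2000 bases was worth 0.033 to 0.059 FPKM.

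Values were taken as log2(FPKM + 1), a scale that understates changes of low genes. Genes that averaged at least 1 FPKM over the 2 groups compared were fitted in R 4.3.3 by limma 3.58.1 (two-sided, eBayes with a trend). P-values were adjusted by Benjamini and Hochberg over all genes tested, and a gene was called where the result was under 0.05. The fit was also run on simulated reads, drawn independently for each library with the same spread setting for all genes. That run held no pairing or library-wide shift and took no rate of false calls, so no conclusion is drawn from it. Coordinates are from GENCODE M21. Tables and figures used Python 3.11.15, pandas 2.3.3, NumPy 2.4.6 and Matplotlib 3.10.9. Wild-type and Ebf1 heterozygous libraries are pools and the leukemias single mice, so p-values measure the spread between such samples.

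The 45 genes and the lists beside them were chosen with earlier results of these data known. Per-sample values are given for genes called in leukemia and for the gene of smallest p in each of 10 roles, and of each other list the text names at most 3 genes that rose and 3 that fell most. Pold1, Pcna, Mcm6, Rfc1, E2f1, E2f3, Tfdp2, Dars and others outside this rule were named after their values were seen. Deviations from group means of libraries of the same number correlated at 0.65, 0.32 and 0.69 between Ebf1 heterozygous and wild type, so these numbers were taken to pair the samples, although the labels name neither a shared day nor a batch.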

Additional observations from a re-analysis of the deposited data

Results flagged for a closer look

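Mcm6, a subunit of the replicative helicase, was at 123.2 FPKM in leukemia replicate 4, far below the 212.86 to 239.41 FPKM of the other 4 leukemias. It was singled out because the gap to the nearest leukemia, divided by the range of the 5, was above Dixon's critical value of 0.71. Of the 45 genes it was the one that met this rule, which chance meets in about 1 in 20 groups of values. The genes around it on chromosome 1 were low in the same leukemia, as given above, and no DNA was measured in the data used here.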

How the results depend on the processing

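Against wild type, the count of genes called higher in leukemia was 9. It was 4 to 10 when single libraries were left out (over all genes, 1746 to 2135), with 4 without wild-type replicate 1. The count called lower was 1, and 0 to 2 with single libraries left out (over all genes, 2048 to 2590). It was 0 without wild-type replicate 2 (Rrm2) and 2 without leukemia replicate 4 (Rrm2 and Pold1). Another pseudocount (0.1), no filter, a filter of 5 FPKM, median-ratio or quantile scaling, all 3 groups in 1 fit and voom gave 8 to 11 higher and 1 lower. Over all genes, these settings gave 1881 to 2626 higher and 2053 to 3619 lower, of 8401 to 16874 tested. Against Ebf1 heterozygous cells, the 1 gene called higher became 0 with a filter of 5 FPKM or with voom, 2 with quantile scaling (Orc1 and Prim1) and 0 to 2 with single libraries left out. Over all genes, 810 of 8492 were called higher with that filter, 904 with voom and 1538 with quantile scaling. With single libraries left out, 690 to 1224 of all genes were called higher. The 0 called lower became 1 with all 3 groups in 1 fit (Rrm2) and 0 to 1 with single libraries left out. Over all genes, 1640 were called lower with all 3 groups in 1 fit and 1007 to 1416 with single libraries left out. The cause of these moves was not tested. Ebf1 heterozygous against wild type gave 0 calls of the 45 in all settings, the replicate block included. No fold change of a called gene changed sign.

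The leukemia libraries share only a number with the others (correlations of -0.05, 0.07 and -0.13 with wild type, and of 0.03, 0.06 and -0.10 with Ebf1 heterozygous cells). With the number as a replicate block, 7 of the replication genes were called higher and 1 lower against wild type. Over all genes, that block gave 1658 higher and 2020 lower of 10968 tested. Against Ebf1 heterozygous cells, 0 of the replication genes were called higher and 0 lower, beside 350 higher and 594 lower of 11161 genes. Each of these all-gene counts was below that of the fit without the block. Quantile scaling moved the split of calls over all genes to 2626 higher and 2382 lower against wild type (2267 and 2647 as deposited) and to 1538 and 1139 against Ebf1 heterozygous cells (1039 and 1370). The all-gene median shifted by at most 0.088.

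With 3 libraries in each progenitor group and the intervals given above, small changes of single genes were not detectable.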
